A study of Mus musculus with 18 samples.

Results

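Interleukin-17 (IL-17) was given for 8 h to fibroblasts whose Igf2bp2 mRNA had been lowered with an siRNA, and their gene expression was set against that of cells with the same siRNA and no cytokine. The comparison was chosen by the treatment label of the RNA-seq libraries, 3 labelled Imp2 siRNA+ IL-17 and 3 labelled Imp2 siRNA, which makes 6 of the 18 samples in the series. The other samples were 6 RNA-seq libraries that carried the label Mock, 3 of them with IL-17, and 6 RNA immunoprecipitation (RIP) libraries. All cells were mouse embryonic fibroblasts (MEFs) of strain C57BL/6, connective tissue cells grown from embryos. Cells of both compared groups received the siRNA against IMP2, had their medium replaced 24 h after transfection and were harvested after 8 h with IL-17 at 200 ng/mL or with none. The group labelled Mock was called siRNA control in the study's design text. An siRNA lowers the target mRNA without removing the gene, and IMP2 protein was not measured in the values used here. Nothing in the labels says that libraries of a group came from separate cultures, so p-values measure the spread between these libraries, which may be technical.

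IL-17 acts on fibroblasts through a receptor of IL-17RA and IL-17RC chains. The adaptor Act1, encoded by Traf3ip2, links the receptor to TRAF6, to NF-κB and MAP kinases, and to C/EBP factors and IκBζ, which together raise transcription of chemokine, cytokine and acute phase genes. A second arm acts after transcription, where RNA-binding proteins stabilise short-lived inflammatory mRNAs and the endoribonuclease Regnase-1, encoded by Zc3h12a, degrades them. IMP2, encoded by Igf2bp2, is an RNA-binding protein that reads the m6A mark on mRNA and is known to stabilise many of its targets.

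The 6 libraries held 34462068 to 41752198 counts, and mitochondrial genes took 3.31% to 3.71% of them in libraries whose titles start with RB160 and 5.41% to 6.78% in those that start with NA. In each group replicate 1 carried RB160 in its title and the other 2 replicates carried NA. The sources used here do not say what this prefix stands for, and it entered every fit as a term unless stated. Igf2bp2, the siRNA target (chromosome 16, 22059009 to 22163299), measured 24.6, 22.3 and 18.6 CPM (counts scaled to library size with TMM factors) without IL-17 and 28.2, 24.3 and 18.4 CPM with it, in replicates 1, 2 and 3. All of these lay below the 6 Mock libraries, of which the lowest measured 134 CPM. The related genes Igf2bp1 and Igf2bp3 had log2 fold changes with IL-17 of 0.0020 and 0.01, and Igf2bp2 one of 0.12 (SE 0.17). Of 15 fibroblast markers 14 were tested, and their summed level was 19375 to 24165 CPM without and 18100 to 19166 CPM with IL-17. The macrophage and T cell genes Adgre1 and Cd3e were at 0 counts in all 6 libraries. Macrophage and leukocyte markers together, largely Cd14, made 8.54 to 10.3 CPM without and 9.51 to 11.6 CPM with IL-17. Endothelial markers summed to at most 1.34 CPM, and neural markers, nearly all Tubb3, to 37.9 to 49.2 CPM. Epithelial markers, nearly all Krt19, summed to 69.2 to 207 CPM without and 50.7 to 166 CPM with IL-17, and skeletal muscle markers, nearly all Acta1, to 89.9 to 251 CPM and 53.1 to 203 CPM.

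In the Imp2 siRNA cells IL-17 raised a small set of genes, with inflammatory genes among the steepest, and lowered a smaller set by less. Of 13702 genes tested, 39 rose (0.285%) and 23 fell (0.168%), so that 62 genes changed (0.452%), by edgeR's quasi-likelihood test at a Benjamini-Hochberg adjusted p of at most 0.05 over all genes. The rises had a median log2 fold change of 0.61 and the falls one of -0.47, beside -0.0062 over all genes tested. A change of at least 2-fold was seen in 11 of the rises and in 1 of the falls, Pparg. In bulk RNA a change in the number of cells that express a gene and a change in the RNA per cell cannot be told apart. Within the RB160 pair and within the 4 NA libraries, the levels with and without IL-17 did not overlap for any of the 62 genes, and this separation was also seen in 24% of all genes tested. The 62 were called on these same libraries with the prefix as a term, which favours such separation, so it adds no support. With 1 RB160 library a group, only the direction counts there. Over all 3 against 3 libraries, 29 of the 62 were free of overlap, beside 4.89% of all genes tested, since the level of many genes differed between prefixes by more than IL-17 moved it. The direction was the same in both prefixes for all 62 genes, beside 58.6% of all genes tested, and the choice of the 62 favours this too. The log2 ratio was larger in RB160 than in NA for 33 of the 39 rises and more negative for 18 of the 23 falls. That share was not counted over all genes tested, and RB160 holds 1 pair, so a stronger response there is not shown.

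**Figure D1:**
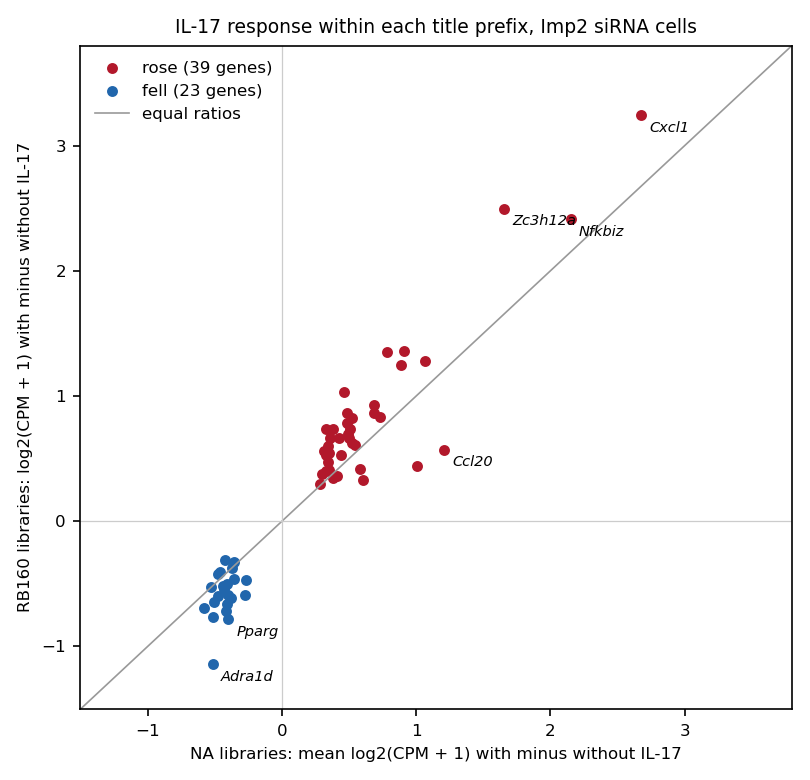
Each point is 1 of the 62 changed genes, with the difference of log2(CPM + 1) with minus without IL-17 in the NA libraries (mean of 2 a group) on the x axis and in the RB160 libraries (1 a group) on the y axis, and the line marks equal ratios. All 39 rises lie above 0 and all 23 falls below 0 on both axes, and 33 rises and 18 falls lie farther from 0 in RB160 than in NA. The 62 genes were chosen on these libraries, and 58.6% of all genes tested had the same sign on both axes.

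The number of calls depended on single libraries, although no changed gene turned direction. Leaving out replicate 1, 2 or 3 of the untreated group gave 8, 26 or 20 calls, of which 8, 25 or 20 were among the 62 genes. Leaving out replicate 1, 2 or 3 of the treated group gave 25, 24 or 43 calls, of which 22, 23 or 39 were among the 62. Nfkbiz, A4galt, Syt17, Tgfbr3, Nfkbia, Col5a3 and Adamts5 passed in all 6 of these fits, and another 6 genes (Cxcl1, Ampd3, Lrig1, Gclm, Col11a1 and Olfml2b) in 5 of them. Those that passed in 1 were 15 genes, namely Gfra2, Wdyhv1, Slc12a2, Stx6, Sqrdl, Dstn, Ttc39c, Id2, Nrp1, Sema3a, Pcdh19, Dkk3, Prr5l, Cmklr1 and Pparg. Those that passed in 0 were 16 genes, namely Ccl20, Zmynd15, Ier3, Cfap69, Hmox1, Ptch1, Cdk6, Nfe2l1, Rbpj, Sorbs3, Eya4, Nrbp2, Osr1, Klhdc8a, Setbp1 and Mrgprf. A fit to the 6 compared libraries alone, with its own estimate of the spread, called 192 rises (1.46% of 13147 genes tested) and 178 falls (1.35%), together 2.81%, which contained all 62 genes. The biological coefficient of variation was 5.02% in that fit and 7.95% in the fit to all 12 RNA-seq libraries. Calls of the 6-library fit are named as such below and every other value comes from the 12-library fit.

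NF-κB binds promoters of many cytokine-induced genes at a short, nearly palindromic DNA element, the κB consensus. RefSeq promoters (GRCm38.p6, which shares the coordinates of mm10; 250 bases before to 50 after the start) were matched by symbol for 37 of the 62 genes. The κB consensus, searched on both strands, was present for 6 of 24 matched rises and 0 of 13 matched falls, beside 9.55% of 27025 genes with a promoter. That background includes genes that were not tested here. Counted per promoter, it was present in 6 of 36 for rises, 0 of 22 for falls and 8.46% of all promoters. The rises with a κB match were Cxcl1, Ccl20, Bcl3, Nfkbia, Ier3 and Tmem176b. A match is a description of the letters and says nothing of whether the factor binds there. Nfkbiz, Nos2 and Slc7a2, which also rose, had no promoter matched by symbol, and the promoter of Zc3h12a held no κB match. The 5 promoters below were taken from the 6 rises with a κB match. They are given from 5′ to 3′ on the strand of the gene, with the κB match in capitals. They lie at chr5:90890995-90891294 on the plus strand for Cxcl1, chr1:83116516-83116815 on the plus strand for Ccl20, chr12:55492598-55492897 on the minus strand for Nfkbia, chr7:19822706-19823005 on the minus strand for Bcl3 and chr17:35821463-35821762 on the plus strand for Ier3.
Cxcl1: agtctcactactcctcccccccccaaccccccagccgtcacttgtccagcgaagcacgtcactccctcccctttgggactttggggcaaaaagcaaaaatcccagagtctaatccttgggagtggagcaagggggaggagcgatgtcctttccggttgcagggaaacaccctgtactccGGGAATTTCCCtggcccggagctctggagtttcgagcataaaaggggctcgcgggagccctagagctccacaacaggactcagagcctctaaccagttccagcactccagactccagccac
Ccl20: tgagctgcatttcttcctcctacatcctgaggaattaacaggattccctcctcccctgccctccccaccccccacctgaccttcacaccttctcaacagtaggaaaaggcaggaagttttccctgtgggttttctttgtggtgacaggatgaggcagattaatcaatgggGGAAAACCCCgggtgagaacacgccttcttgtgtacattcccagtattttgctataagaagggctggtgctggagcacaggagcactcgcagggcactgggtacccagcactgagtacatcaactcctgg
Nfkbia: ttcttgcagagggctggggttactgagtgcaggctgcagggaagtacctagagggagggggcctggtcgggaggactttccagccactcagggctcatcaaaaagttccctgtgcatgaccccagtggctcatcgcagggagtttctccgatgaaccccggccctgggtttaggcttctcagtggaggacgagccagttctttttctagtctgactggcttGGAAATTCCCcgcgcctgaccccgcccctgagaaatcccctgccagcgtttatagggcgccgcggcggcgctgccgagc
Bcl3: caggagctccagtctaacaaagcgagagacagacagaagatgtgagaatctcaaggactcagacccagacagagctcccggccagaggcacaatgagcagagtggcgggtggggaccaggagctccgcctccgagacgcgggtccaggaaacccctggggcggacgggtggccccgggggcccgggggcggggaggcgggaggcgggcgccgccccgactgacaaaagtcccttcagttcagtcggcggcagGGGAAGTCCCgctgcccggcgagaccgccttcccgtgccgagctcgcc
Ier3: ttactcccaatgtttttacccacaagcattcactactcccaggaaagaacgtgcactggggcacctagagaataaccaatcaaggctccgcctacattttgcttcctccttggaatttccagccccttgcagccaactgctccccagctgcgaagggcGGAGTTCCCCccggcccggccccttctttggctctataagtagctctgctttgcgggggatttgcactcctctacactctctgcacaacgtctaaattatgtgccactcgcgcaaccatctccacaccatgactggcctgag
With the first transcribed base as position 1 and the base before it as -1, Cxcl1 has a pair of overlapping matches that begin at -71 and -70. Those of Ccl20, Ier3 and Nfkbia begin at -80, -92 and -29, and that of Bcl3 begins at 3. Of the other elements searched, the C/EBP element TTGCNNAA was present for 2 of 24 rises and 1 of 13 falls (12.2% of all genes). The antioxidant response core TGACNNNGC was present for 4 and 3 (14% of all genes), and the AP-1 element TGANTCA for 4 and 0 (8.97% of all genes).

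Among the inhibitors and cofactors of NF-κB 3 genes rose, while genes of the receptor and its adaptors did not pass. Of 7 tested members of the IκB family 3 rose and 0 fell, with a list median of 0.58 beside -0.0062 over all genes. Nfkbiz, which encodes the nuclear cofactor IκBζ (chromosome 16, 55811375 to 55838899), measured 18.3, 23.6 and 25.8 CPM without IL-17 and 102, 113 and 113 CPM with it. The groups were far apart, with a 5.55-fold ratio in RB160 and a 4.58-fold ratio in NA (log2 2.30, SE 0.13, edgeR adjusted p = 3.85e-05). Nfkbia, which encodes IκBα, the inhibitor that holds NF-κB in the cytoplasm, measured 37.8, 59.2 and 63.5 CPM without and 58.3, 90.3 and 89.4 CPM with IL-17. Its RB160 library with IL-17 lay below the NA libraries without it, yet the ratio within prefixes was alike, at 1.54-fold and 1.46-fold (log2 0.58, SE 0.05, edgeR adjusted p = 0.00029). Bcl3, an atypical IκB that acts with p50 and p52 in the nucleus, measured 6.38, 9.88 and 7.52 CPM without and 16.5, 18.5 and 15.3 CPM with IL-17, with no overlap (log2 1.10, SE 0.17, edgeR adjusted p = 0.0196). Leaving out untreated replicate 1 or 3 took its adjusted p to 0.180 or 0.115, and leaving out treated replicate 1 or 2 took it to 0.125 or 0.0905. Nfkbid, another atypical IκB, had 8, 18 and 19 counts in untreated and 24, 24 and 26 in treated libraries, and its log2 value of 0.79 did not pass.

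None of the 5 NF-κB subunits passed in the 12-library fit (list median 0.20), and 3 passed in the 6-library fit. These were Relb (log2 0.33, 6-library edgeR adjusted p = 0.0165), Nfkb1 (0.33, 0.0114) and Nfkb2 (0.20, 0.0310), all of which are themselves known NF-κB targets. Of 22 tested receptor, adaptor and kinase genes 0 passed, their median was 0.03, and Traf2 alone passed in the 6-library fit (0.23). Il17rc had a log2 value of -0.15 and Traf3ip2, the Act1 gene, one of 0.16. In the C/EBP family 0 of 6 passed. Cebpd, an inflammatory transcription factor, measured 13.2, 19.1 and 15 CPM without and 37.2, 46.8 and 36.2 CPM with IL-17. These groups did not overlap, but the log2 fold change of 1.38 had an SE of 0.33 and an edgeR adjusted p of 0.234, against 0.00568 in the 6-library fit. Cebpb measured 15.6, 24.8 and 22.3 CPM without and 20.3, 26.3 and 22.7 CPM with IL-17, which overlap (log2 0.16, SE 0.13). Among 17 AP-1 and immediate early genes Ier3, a survival gene induced by NF-κB, rose (0.62, SE 0.11, edgeR adjusted p = 0.0298), with an adjusted p of 0.0626 to 0.219 when 1 library was left out. In the 6-library fit Fosl1 rose too, while 0 of 15 genes of MAP kinase feedback passed in either fit.

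**Figure D2:**
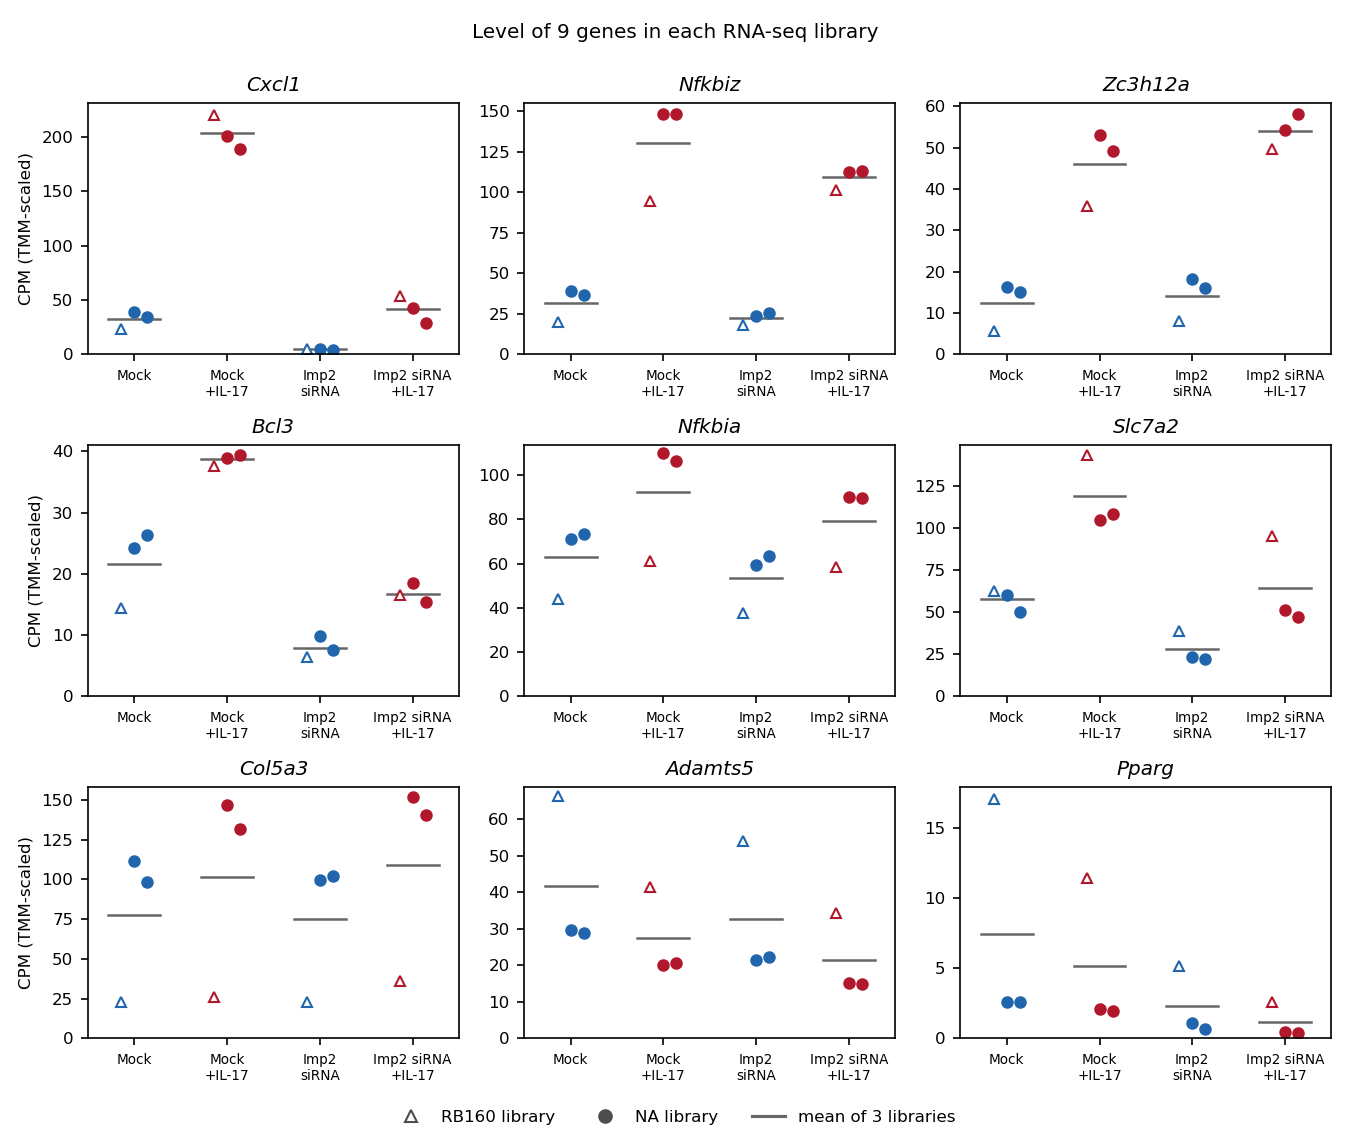
Each panel gives the level of 1 gene, in CPM scaled by TMM factors on a linear axis from 0, in the 12 RNA-seq libraries. Triangles are RB160 libraries, circles NA libraries, blue without and red with IL-17, and the line is the mean of 3. All 3 treated libraries lie above all untreated ones of the same siRNA state for Cxcl1, Nfkbiz, Zc3h12a and Bcl3, and the untreated Imp2 siRNA libraries of Cxcl1, at 4.20 to 5.23 CPM, lie below the Mock ones. Col5a3, Adamts5 and Pparg differ between prefixes by more than they do with IL-17 in Imp2 siRNA cells.

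Of 20 tested genes that restrain inflammatory signalling, Zc3h12a was the 1 that passed in the 12-library fit (list median 0.03). It measured 7.97, 18.3 and 16.1 CPM without and 49.6, 54.2 and 58.2 CPM with IL-17. Every library with IL-17 was above every library without it, with a 6.22-fold ratio in RB160 and a 3.27-fold ratio in NA (log2 2.02, SE 0.23, edgeR adjusted p = 0.0103). Leaving out untreated replicate 1 or 3 took the adjusted p to 0.0833 or 0.0776. The 6-library fit added Tnfaip3, the ubiquitin-editing enzyme A20 (0.27), and Zfp36l1, which promotes decay of AU-rich mRNAs (0.32).

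Of 3 tested neutrophil chemokine genes, Cxcl1 rose. Cxcl1 (chromosome 5, 90891241 to 90893115) draws neutrophils through CXCR2 and measured 4.80, 5.23 and 4.20 CPM without and 53.9, 43.0 and 29.0 CPM with IL-17. Every treated library was far above every untreated one, with an 11.2-fold ratio in RB160 and a 7.63-fold ratio in NA (log2 3.15, SE 0.29, edgeR adjusted p = 0.00738). Leaving out untreated replicate 1 took the adjusted p to 0.0664. Cxcl5, a related chemokine gene, had 0 counts in all 3 libraries without IL-17 and 3, 5 and 0 counts with it, so no fold is given.

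Of 9 tested CC chemokine genes, with a median of 0.21, Ccl20, the ligand of CCR6 on Th17 cells and dendritic cells, rose. It had 0, 22 and 13 counts in untreated and 22, 90 and 71 in treated libraries, or 0 to 0.643 and 0.486 to 2.74 CPM, and the groups overlapped across prefixes. Its log2 value was 2.56 (SE 0.48, edgeR adjusted p = 0.0368), and with any 1 of the 6 libraries left out the adjusted p was 0.0631 to 0.270. The monocyte chemokine genes Ccl2 and Ccl7 had no overlap between groups but did not pass. Ccl7 measured 17.1, 14.6 and 13.0 CPM without and 76.0, 52.1 and 46.5 CPM with IL-17 (log2 1.98, SE 0.39, edgeR adjusted p = 0.117, and 1.69e-08 in the 6-library fit). Ccl2 measured 24.4, 23.3 and 15.1 CPM without and 112, 82.1 and 63.1 CPM with IL-17 (2.04, SE 0.41, edgeR adjusted p = 0.128, and 0.0542 in the 6-library fit). Cxcl16, the ligand of CXCR6 and 1 of 5 other chemokine genes tested (median -0.10), had a log2 value of 1.23 and passed in the 6-library fit.

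No cytokine or growth factor gene passed in the 12-library fit (0 of 21, median 0.21), and 4 rose and 1 fell in the 6-library fit. Lif, an IL-6 family cytokine, measured 41.1, 76.3 and 65.3 CPM without and 107, 149 and 132 CPM with IL-17 (log2 1.16, SE 0.34, edgeR adjusted p = 0.387, and 0.00788 in the 6-library fit). Fgf7, a growth factor for epithelia, measured 157, 264 and 242 CPM without and 277, 368 and 367 CPM with IL-17 (0.64, 6-library edgeR adjusted p = 7.57e-05). Both genes were higher with IL-17 in all 3 libraries than in any library without it. Vegfa, an angiogenic factor that is also on the hypoxia list, had a log2 value of 0.46, and Il34, a ligand of the CSF1 receptor, one of 0.36. The gene that fell there was Tnfrsf11b, which encodes the RANKL decoy osteoprotegerin (-0.30, 6-library edgeR adjusted p = 0.00183).

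Il6, the acute phase cytokine, had 37, 87 and 80 counts in untreated and 372, 274 and 169 in treated libraries, with no overlap in counts or CPM (log2 2.05, SE 0.60, edgeR adjusted p = 0.387). Il1a, an alarm cytokine, had 1, 64 and 44 counts in untreated and 55, 138 and 138 in treated libraries (1.88, edgeR adjusted p = 0.0831). The granulocyte factor gene Csf3 had 41, 69 and 116 counts in untreated and 81, 94 and 107 in treated libraries, which overlap (0.40). None of 15 tested cytokine receptor genes passed in the 12-library fit, and Il4ra rose in the 6-library fit.

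Acute phase and antimicrobial genes were low and uneven. Of 15 tested, 0 passed in the 12-library fit, 14 had a positive log2 value and the median was 1.01. Lcn2, which binds bacterial siderophores, had 3, 126 and 169 counts in untreated and 583, 673 and 467 in treated libraries. The RB160 library without IL-17 stood far below the NA libraries, and the log2 value of 2.89 had an SE of 1.08. Saa3, a serum amyloid gene, had 0, 11 and 13 counts in untreated and 68, 23 and 19 in treated libraries, and the haptoglobin gene Hp 6, 15 and 3 against 55, 9 and 9. In the 6-library fit 4 members rose, namely Cp, Serpina3g, Ptx3 and Mt1. Serpina3g measured 15.5, 3.68 and 2.80 CPM without and 35.5, 6.41 and 5.05 CPM with IL-17 (1.01), and since the Serpina3 genes of the mouse are near-identical copies, its reads may belong in part to a neighbour.

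Genes of arginine use and nitric oxide rose in part. Of 8 tested, 2 rose in the 12-library fit and 4 in the 6-library fit, with a median of 0.37. Slc7a2, a cationic amino acid transporter that brings arginine into the cell (chromosome 8, 40862396 to 40922308), measured 38.6, 23.7 and 22.3 CPM without and 95.3, 51.4 and 46.9 CPM with IL-17. The groups did not overlap (log2 1.18, SE 0.15, edgeR adjusted p = 0.00983), and leaving out untreated replicate 1, 2 or 3 took the adjusted p to 0.0653, 0.0533 or 0.0687. Nos2, which encodes the inducible nitric oxide synthase, had 0 counts in all 3 libraries without IL-17 and 70, 28 and 19 counts with it. Against a floor of 3 counts per library, its mean level was at least 12.2-fold higher with IL-17, at 1.55, 0.851 and 0.596 CPM in replicates 1 to 3. The edgeR adjusted p was 0.00983, and leaving out replicate 1 of the untreated or of the treated group took it to 0.0835 or 0.0662. Nos2 had at most 4 counts in any library without IL-17, Mock included, so it entered the test through libraries with IL-17. That favours a rise, so the p-value adds no support to the counts. The cystine transporter gene Slc7a11 (0.56) and the polyamine gene Odc1 passed in the 6-library fit, and Gch1, which makes the cofactor of nitric oxide synthase, had a log2 value of 0.70 and did not pass.

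Among lipid and sterol genes, the oxysterol hydroxylase gene Cyp7b1 rose and Pparg fell. Cyp7b1, the 1 of 7 oxysterol and sterol efflux genes that passed, measured 4.02, 3.30 and 2.42 CPM without and 8.55, 6.17 and 4.33 CPM with IL-17, with no overlap (log2 0.96, SE 0.15, edgeR adjusted p = 0.0110). Leaving out untreated replicate 1 or 3 or treated replicate 2 took its adjusted p to 0.129, 0.0767 or 0.0576. A4galt, the glycosyltransferase that makes the glycolipid Gb3, measured 2.10, 1.35 and 1.11 CPM without and 6.98, 3.19 and 3.17 CPM with IL-17 (1.52, SE 0.15, edgeR adjusted p = 0.000441). All 3 of its libraries with IL-17 were higher than any without. Pparg, the main regulator of fat cell differentiation, had 218, 37 and 23 counts in untreated and 117, 15 and 12 in treated libraries, or 5.15, 1.08 and 0.671 CPM against 2.58, 0.456 and 0.376 CPM. Its level was highest in the RB160 libraries, where the one with IL-17 exceeded the NA libraries without it, and the ratio was 0.502 in RB160 and 0.475 in NA (log2 -1.02, SE 0.18, edgeR adjusted p = 0.0189). With single libraries left out, its adjusted p was 0.0288 to 0.228, and it passed in the fit that left out untreated replicate 3 and in no other. Of 16 adipogenic and lipid genes, a list added after the data were seen, Pparg alone passed in the 12-library fit, while Plin4 and Dlk1 fell too in the 6-library fit. None of 16 cholesterol synthesis genes passed in either fit (median -0.09).

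Antioxidant genes mostly had small positive values, and few passed. A list of antioxidant and glutathione genes, with the transcription factor NRF2 and related regulators among them, was added after the data were seen. Of its 32 tested members 3 rose and 0 fell, while 15 rose in the 6-library fit. A positive log2 value was seen in 28, beside 6471 of 13702 genes tested, and the median was 0.18. Because the list was added with the values known, these counts add no support for a response of antioxidant genes as a group. Gclm, the regulatory subunit of the enzyme that limits glutathione synthesis, measured 59.7, 100 and 101 CPM without and 83.0, 130 and 125 CPM with IL-17. It was higher within each prefix but overlapped across prefixes (log2 0.39, SE 0.05, edgeR adjusted p = 0.00596), and leaving out untreated replicate 1 took the adjusted p to 0.0653. Hmox1, the haem oxygenase gene, rose from 181, 370 and 377 CPM to 262, 505 and 507 CPM (0.47, edgeR adjusted p = 0.0241), and Nfe2l1, a transcription factor related to NRF2, rose by 0.33. Neither passed in any left-out fit, with an adjusted p of 0.0583 to 0.147 for Hmox1 and 0.0984 to 0.225 for Nfe2l1. Nfe2l2, the NRF2 gene itself, had a log2 value of 0.18, and Srxn1 (0.34), Prdx1 (0.27) and Nqo1 (0.28), which act in thiol and quinone reduction, passed in the 6-library fit alone.

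Other rises are given gene by gene. Tgfbr3, the TGF-β co-receptor betaglycan, measured 41.4, 12.3 and 9.22 CPM without and 74.7, 18.2 and 18.4 CPM with IL-17 (log2 0.80, SE 0.10, edgeR adjusted p = 0.00423). Syt17 measured 5.04, 7.84 and 8.14 CPM without and 9.96, 12.3 and 14.7 CPM with IL-17, with no overlap (0.83, edgeR adjusted p = 0.00418). Lrig1, which restrains EGF receptors, measured 55.6, 81.9 and 74.1 CPM without and 96.3, 110 and 109 CPM with IL-17 (0.60, SE 0.09, edgeR adjusted p = 0.00794). Ampd3, an AMP deaminase gene, rose from 11.1, 24.0 and 25.8 CPM to 20.4, 35.3 and 37.3 CPM (0.66). Map2k6, a kinase that activates p38 (0.76), and Mkx, a tendon homeobox factor (0.64), rose as well. So did Gng2, a G protein subunit (0.61), Micall2 (0.60), the ion cotransporter gene Slc12a2 (0.50), the Hedgehog receptor gene Ptch1 (0.41) and Dstn, which encodes the actin-severing protein destrin (0.40). Rises under 0.40 were also seen in Cd47, a signal against phagocytosis (0.37), Cdk6, a cell cycle kinase (0.36), and Rbpj, the DNA-binding partner of Notch (0.29). Gfra2, the neurturin receptor gene, Ankk1 and Zmynd15 rose by 1.82, 1.72 and 1.43 but stayed below 5 CPM in every library, as did Nos2 and Ccl20. The remaining rises were Wdyhv1 (0.70), Itpripl2 (0.51), Cfap69 (0.51), Tmem176b (0.47), the endosomal SNARE gene Stx6 (0.44), the sulfide oxidase gene Sqrdl (0.41) and Ttc39c (0.40). Of the genes in this paragraph, Ptch1, Cdk6, Rbpj, Zmynd15 and Cfap69 passed in 0 left-out fits, and Gfra2, Slc12a2, Dstn, Wdyhv1, Stx6, Sqrdl and Ttc39c in 1.

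Matrix and contractile genes mostly had small negative values, and almost none passed. Of 34 fibrillar and other matrix genes 1 rose, 0 fell and 27 had no positive log2 value (median -0.12). Col5a3, a minor chain of collagen V, rose, from 22.9, 99.8 and 102 CPM to 35.9, 152 and 140 CPM (0.57, SE 0.08, edgeR adjusted p = 0.00596). Its RB160 libraries stood below all NA libraries, and the ratio was 1.57-fold in RB160 and 1.44-fold in NA. Col1a1 (-0.19) and Col1a2 (-0.22), the chains of collagen I, did not pass in either fit, and Col5a1 (-0.27) and Col12a1 fell in the 6-library fit. Col11a1, a fibrillar collagen of cartilage outside that list, fell from 394, 199 and 198 CPM to 257, 154 and 151 CPM (-0.46, SE 0.07, edgeR adjusted p = 0.00794). Of 13 contractile genes 0 passed in the 12-library fit, 0 had a positive value and the median was -0.15, with -0.20 for the smooth muscle actin gene Acta2. Myh11 (-0.72) fell in the 6-library fit, at 140, 124 and 164 counts in untreated and 66, 90 and 96 in treated libraries.

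Of 23 matrix protease and inhibitor genes, Adamts5, the main aggrecanase of mouse cartilage, fell. It measured 54.2, 21.6 and 22.3 CPM without and 34.4, 15.3 and 14.9 CPM with IL-17, lower within each prefix at ratios of 0.634 and 0.690 (log2 -0.58, SE 0.07, edgeR adjusted p = 0.00149). The related gene Adamts12 (-0.31) and the inhibitor gene Timp3 fell in the 6-library fit. Mmp13, a collagenase known as an IL-17 target in joint cells, had 16, 333 and 305 counts in untreated and 92, 358 and 367 in treated libraries, and Mmp3, stromelysin, 2, 82 and 52 against 43, 107 and 75. Neither passed (0.64 and 1.14), and both had few counts in the untreated RB160 library.

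Of 16 Wnt modulators Dkk3 fell and the list median was -0.22. Dkk3 measured 137, 22.1 and 20.1 CPM without and 86.6, 16.5 and 14.9 CPM with IL-17, so its RB160 libraries stood apart from the others (log2 -0.52, SE 0.10, edgeR adjusted p = 0.0362). Its adjusted p was 0.102 to 0.202 in the 5 left-out fits other than that without treated replicate 2. Rspo2, which amplifies Wnt signals (-0.54), and Wnt5a fell and Wnt5b (0.67) rose in the 6-library fit. Of 28 TGF-β and BMP genes Tgfbr3 rose and Id2, an inhibitor of helix-loop-helix factors that BMP induces, fell (-0.36, SE 0.07, edgeR adjusted p = 0.0298), with a list median of -0.0040. Id2 passed in 1 left-out fit, that without treated replicate 3, and had an adjusted p of 0.0750 to 0.196 in the others. Bmp4 (-0.44) fell in the 6-library fit. Of 10 Notch pathway genes 0 passed in the 12-library fit, and the effector Hey2 (-0.54) fell in the 6-library fit.

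The guidance factor gene Sema3a measured 232, 172 and 174 CPM without and 173, 117 and 132 CPM with IL-17 (-0.46, edgeR adjusted p = 0.0383), and Nrp1, which encodes its receptor neuropilin-1, fell by 0.39 on the log2 scale. Both passed in the left-out fit without treated replicate 1, and elsewhere their adjusted p was 0.0984 to 0.225 for Sema3a and 0.0733 to 0.188 for Nrp1. Cmklr1, the chemerin receptor gene, measured 9.48, 2.22 and 1.92 CPM without and 5.48, 1.22 and 0.909 CPM with IL-17 (-0.89, SE 0.15, edgeR adjusted p = 0.0172), and it passed in the left-out fit without treated replicate 2, with 0.0626 to 0.147 in the others. Adra1d, an α1 adrenergic receptor gene, measured 11.9, 7.78 and 9.59 CPM without and 4.86, 5.05 and 6.52 CPM with IL-17, with no overlap (-0.84, SE 0.15, edgeR adjusted p = 0.0218). Tmem119, a gene of bone-forming cells, fell from 17.9, 15.9 and 14.7 CPM to 11.5, 10.7 and 10.7 CPM (-0.56, SE 0.08, edgeR adjusted p = 0.00885), and Prr5l, which binds the kinase complex mTORC2, from 11.7, 12.4 and 11.6 CPM to 7.80, 7.90 and 8.15 CPM (-0.58). C1qtnf1 measured 23.7, 7.63 and 6.79 CPM without and 14, 5.23 and 5.05 CPM with IL-17 (-0.60, edgeR adjusted p = 0.00843), again higher in RB160 than in NA. Falls between -0.63 and -0.47 were seen in Mrgprf, Pde8b, a cyclic AMP phosphodiesterase, Pcdh19, a protocadherin, Setbp1, Olfml2b, Klhdc8a and Cdon, a Hedgehog co-receptor. The transcription factor genes Osr1 and Eya4 fell by 0.43 and 0.38, and Nrbp2 and Sorbs3 by 0.41 and 0.34. None of these 4 genes, nor Mrgprf, Setbp1 or Klhdc8a, passed in any left-out fit.

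**Figure D3:**
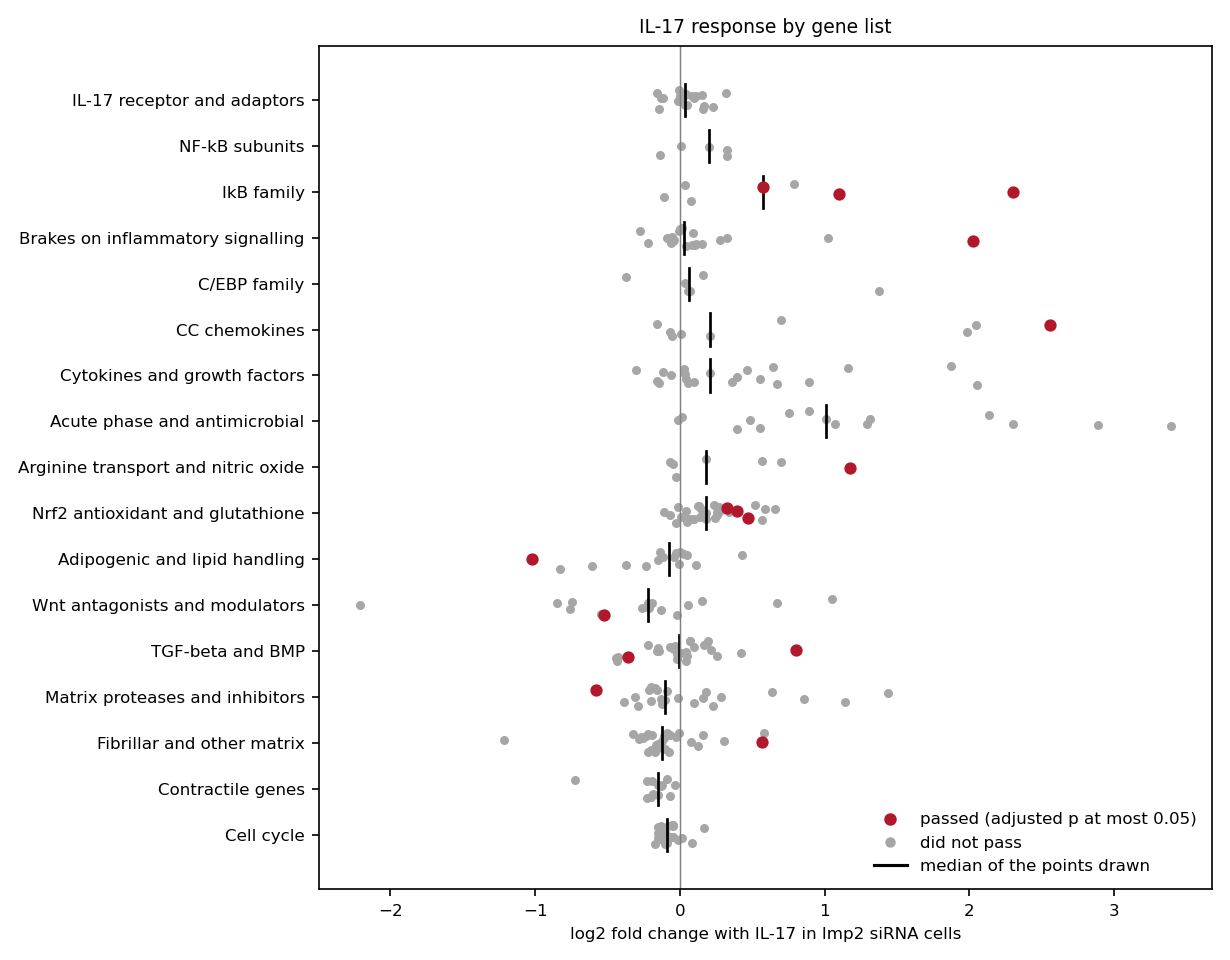
Each row is a gene list and each point a tested member, placed by its log2 fold change with IL-17 in Imp2 siRNA cells, with members past the threshold in red and the median of the points as a black line. Nos2 is left off because its fitted value depends on the prior count. The acute phase points spread from near 0 to 3.39 with no red point, and the IκB family has 3 red points.

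Calls were 0 in both fits for several lists, which is near the background of 0.452% and 2.81% for lists of this size. These were 21 interferon-stimulated genes (median -0.06), 23 cell cycle genes (-0.09), 13 p53 targets (0.0023), 20 integrated stress and ER chaperone genes (0.0058), 19 genes of the m6A machinery and the IMP family (0.02), and 9 leukocyte adhesion genes (-0.02). Among the last, the P-selectin gene Selp had 119, 1137 and 1212 counts in untreated and 787, 2213 and 2165 in treated libraries (log2 1.4, SE 0.38), and did not pass. Of 11 prostaglandin genes 0 passed in the 12-library fit and Ptges and Ptgis rose in the 6-library fit, while Ptgs2, the cyclooxygenase-2 gene, had a log2 value of 0.59 and did not pass in either. Of 23 hypoxia and glycolysis genes 0 passed in the 12-library fit, and in the 6-library fit Vegfa, Slc2a1 and Bnip3 rose and Pfkfb4 fell. Of the marker lists, 0 genes passed in the 12-library fit, while the fibroblast markers Pdgfrb and Vim and the epithelial marker Krt19 fell in the 6-library fit. The part of these markers in the results was not tested.

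The same treatment in Mock cells changed 56 genes (0.409%), and that comparison shared no library with the one in Imp2 siRNA cells. Both came from the 12-library fit, however, with 1 estimate of the spread and 1 prefix term per gene, so calls in both are not independent. Of the 62 genes, 36 passed in Mock cells too, 25 that rose and 11 that fell, which is 58.1% of the Imp2 siRNA list and 64.3% of the Mock list. All 62 had the same sign in Mock cells. The share with the same sign over all genes tested was not counted, so how far this exceeds the general share cannot be told. The size was larger in Imp2 siRNA cells for 50 of the 62 genes that passed there, and larger in Mock cells for 31 of the 56 that passed in Mock. Each list was chosen by passing in its own cells, which favours a larger size there, so these counts do not compare the strength of the responses. Whether the responses differed was tested as an interaction, and 0 of 13702 genes passed by edgeR's quasi-likelihood test or by DESeq2, while 141 had an unadjusted p under 0.05 by edgeR. The smallest adjusted p was 1.00. A p above the threshold does not show that the responses were alike, and the 95% interval of the difference lay within 1 log2 unit of 0 for 54 of the 62 genes and within 0.5 for 41.

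Of the 62 genes, 7 had an unadjusted edgeR interaction p under 0.05, and each had an adjusted p of 1.00. A4galt had log2 fold changes of 1.52 in Imp2 siRNA and 0.92 in Mock cells, a difference of 0.60 with a 95% interval of 0.18 to 1.03. C1qtnf1 had -0.60 and -0.22, a difference of -0.38 with an interval of -0.64 to -0.12. Pparg had -1.02 and -0.45 (difference -0.57, interval -1.05 to -0.10) and Cdon -0.47 and -0.17 (difference -0.30, interval -0.52 to -0.08). The others were Map2k6 (difference 0.45), Tmem176b (0.29) and Zmynd15 (0.75), each larger in Imp2 siRNA cells. The 62 genes were chosen by their values in Imp2 siRNA cells, which the interaction uses again. That choice alone favours small unadjusted p-values and larger sizes in Imp2 siRNA cells among them. For Nfkbiz the difference was 0.25 with an interval of -0.14 to 0.64, and for Nfkbia 0.03 with an interval of -0.14 to 0.19. For Cxcl1 it was 0.50 with an interval of -0.38 to 1.37, so neither an equal response nor one over 2-fold larger lay outside it. Cebpb had 0.16 in Imp2 siRNA and 0.54 in Mock cells (difference -0.38, interval -0.77 to 0.0014).

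**Figure D4:**
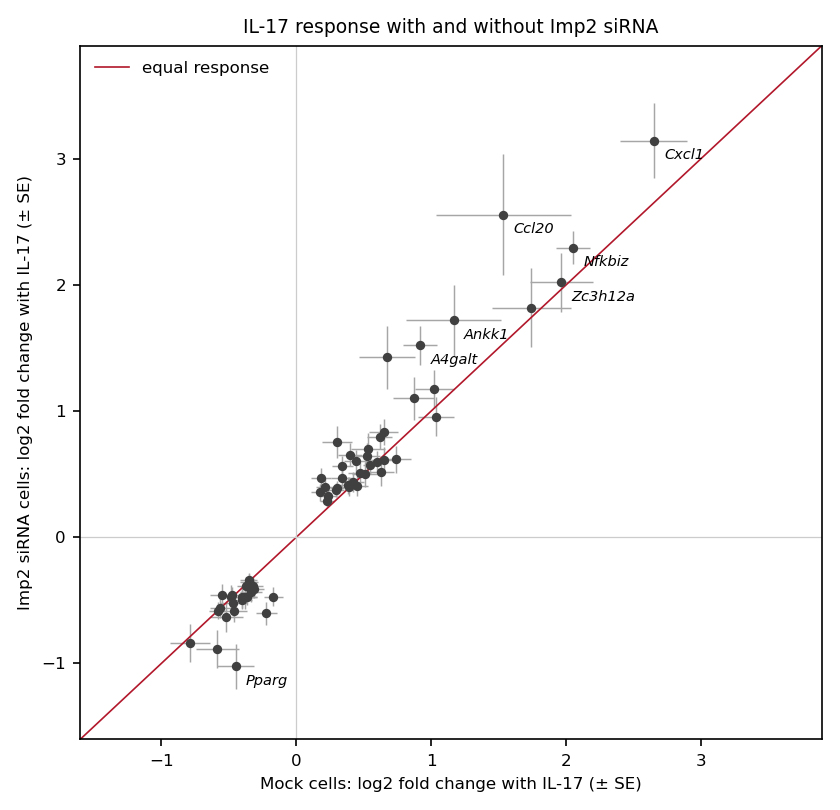
Each point is 1 of the changed genes other than Nos2, with its log2 fold change with IL-17 in Mock cells on the x axis and in Imp2 siRNA cells on the y axis, bars for the SE and a line for equal responses. The genes were chosen by their value on the y axis, and 0 differed between axes past the threshold. All have the same sign on both axes, a share that was not counted over all genes tested.

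For several of the genes the level reached with IL-17 differed between Imp2 siRNA and Mock cells. Cxcl1 measured 23.5, 39.3 and 34.1 CPM in Mock cells and 220, 201 and 189 CPM in Mock+IL-17 cells, all above the 29.0 to 53.9 CPM of Imp2 siRNA+ IL-17 cells. The log2 difference of Imp2 siRNA from Mock was -2.77 (edgeR adjusted p = 0.000242) without IL-17 and -2.27 (adjusted p = 0.000253) with it. These comparisons share their libraries with the IL-17 comparisons and are given side by side only. The siRNA changed 32.4% of all genes tested without IL-17 and 33.3% with it. Bcl3 had log2 differences of -1.43 without and -1.2 with IL-17, Slc7a2 -1.07 and -0.92, A4galt -1.98 and -1.38, Pparg -1.64 and -2.22, and each passed at both. Zc3h12a had 0.21 and 0.26 and Ier3 0.13 and 3.59e-05, and neither passed in either state. Nfkbiz had -0.47 (edgeR adjusted p = 0.0188) and -0.22 (adjusted p = 0.189), and Hmox1 was higher with the siRNA, at 0.64 and 0.76.

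RNA bound to IMP2 was measured by the authors with an anti-IMP2 antibody against control IgG in MEFs given IL-17, which the design text sets at 3 h and the library descriptions name. For this comparison the authors' deposited table lists 5294 genes, all enriched past a log2 value of 1. Of the 39 rises 15 are listed (38.5%), and of the 23 falls 7 (30.4%), beside 34.5% of all genes tested here. The authors' deposited table gives log2 values of 3.58 for Cxcl1, 2.72 for Cyp7b1, 2.49 for Ier3, 1.71 for Zc3h12a, 1.57 for A4galt, 1.2 for Nfkbiz and 1.11 for Bcl3. Among falls it gives 2.77 for Id2, 2.64 for Pparg and 1.33 for Dkk3. Nfkbia, Slc7a2, Nos2, Col5a3 and Adamts5 are not in that table, which holds only genes that passed in favour of IMP2.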

How the data were processed

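The authors deposited the RNA-seq table as raw counts of 12 libraries, whole numbers with a different total in each library, with Ensembl IDs, symbols and mm10 coordinates. CASAVA 1.4, STAR, DESeq2 and the build mm10 appear in the submitters' processing notes without a role. Libraries were made with Nextera XT for RNA-seq and SMART-Seq v4 for RIP, per the labels' protocols. The sources used here do not state strand, which means that sense and antisense reads cannot be told apart, nor can near-identical copies. The authors deposited a RIP table that gives, per the file headers, a mean normalized signal, a log2 fold change with its standard error, and an adjusted p-value for anti-IMP2 against IgG.

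In R 4.3.3, edgeR 4.0.16 was run on the counts, using filterByExpr (13702 of 48709 genes), TMM factors and a robust quasi-likelihood fit to all 12 libraries with 4 groups and the title prefix as an additive term. SEs are the absolute log2 fold change divided by the square root of F, and intervals are at 95%. Named genes are those past the threshold, ordered by size among those with a mean of at least 5 CPM, and members of 37 gene lists. Members and lists were chosen with earlier results of these data known, and 2 further lists were added after the data were seen. Ratios within a prefix used log2(CPM + 1), and folds within a prefix are ratios of mean CPM. A gene at 0 was bounded by a floor of 3 counts per library, which covers counting error only. The alternatives were DESeq2 1.42.0, other size factors, filters and prefix terms, subsets of libraries, and leaving out each library. The scripts were tested on simulated data, and RefSeq promoters were searched with Python 3.11.15.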

Additional observations from a re-analysis of the deposited data

How the results depend on the processing

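The count of 62 genes changed by IL-17 in Imp2 siRNA cells was 370 (192 rises and 178 falls) in the 6 compared libraries alone, 204 (112 and 92) with a separate prefix term per siRNA state, 171 (97 and 74) with DESeq2 and 110 (60 and 50) with no low-count filter, and each of these contained all 62. It was 2 with no prefix term, both of them rises, 8 to 43 with 1 library left out, and 69 (53 and 16) in the NA libraries alone, of which 38 were among the 62. It stayed at 62 with RLE or upper quartile factors, and with a filter of 1 CPM in 3 libraries, when 61 were shared. The difference of the IL-17 responses by siRNA had 0 calls under every alternative run, by edgeR and by DESeq2. Over 929 values of the changed genes under these alternatives, 610 kept their side of the threshold, 319 lost it and 0 turned direction. Igf2bp2 itself, which did not pass, ranged from -0.065 to 0.27 with 1 library left out, and turned to -0.065 without replicate 1 of Imp2 siRNA+ IL-17. The separate fits use other estimates of the spread, and the cause of the differences in count was not tested. With 1 RB160 library a group, no test within RB160 was possible. By stated replicate numbers, no paired analysis was possible because the RNA-seq titles carry no replicate number shared by the groups. The NA titles do run through the groups in a repeated order, and a fit with these runs as a block was not made. How such a block would change the counts of genes was therefore not tested. For RIP, the table holds the authors' comparison alone. At 34462068 counts or more per library, genes under about 3 counts could not be told from absent.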

Other observations

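Over genes with at least 20 summed counts in the pair, the reduced chi-square between pairs of NA libraries did not follow the treatment. Replicates 2 and 3 of Imp2 siRNA gave 11 and those of Imp2 siRNA+ IL-17 gave 9.11. The untreated and treated libraries with the same number gave 7.80 for number 2 and 7.11 for number 3, and those with different numbers 11.4 and 18.1. The RB160 pair gave 22.9, and pairs across prefixes gave 165 to 183. The numbers name the libraries in accession order, which for the NA libraries is also the order of their titles. Whether libraries with the same number share a culture is not stated.

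Untreated levels of several inflammatory genes were near 0 in the RB160 library and above it in both NA libraries. Without IL-17, Lcn2 had 3 counts in RB160 and 126 and 169 in NA, Il1a had 1 and 64 and 44, Mmp3 had 2 and 82 and 52, and Ccl20 had 0 and 22 and 13. With IL-17 the same genes had 583 and 673 and 467, 55 and 138 and 138, 43 and 107 and 75, and 22 and 90 and 71 counts. Serpina3f did not share this untreated pattern, with 2 counts in RB160 and 4 and 2 in NA without IL-17. With IL-17 it was higher in RB160, at 88 against 8 and 7 counts. Without IL-17, Slc7a2 (38.6 CPM in RB160, 23.7 and 22.3 in NA) and Cxcl1 (4.80, and 5.23 and 4.20) did not show the pattern either. All of these genes were chosen after their values were seen, so they do not describe inflammatory genes as a whole.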
